A study of Chlamydomonas reinhardtii with 27 samples.

Results

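P5CS2 (CHLREDRAFT_130812), the gene that the study names pyrroline-5-carboxylate synthetase, was followed in Chlamydomonas reinhardtii cells under salt stress and in control cells. It is 1 of the 19267 identifiers in the deposited count table and was chosen by its identifier. Its row was read in all 27 libraries of the count table and of the FPKM matrix. C. reinhardtii is a unicellular green alga of fresh water, and GY-D55 is a strain that the labels call wild type. Cells growing in BG-11 medium with a daily light and dark period received NaCl to 200 mM and were collected early (2, 4, and 8 h later), at 12 and 24 h, and late (at 48, 72, and 96 h). The control group was cultured without NaCl, and 3 libraries of polyadenylated RNA were made for each of the 9 conditions. The sources do not give the time at which the control cells were collected, nor whether they received the same volume of fresh medium as the salt cultures. Salt, the age of the culture, and the time of day therefore cannot be told apart in a comparison with control.

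Plant cells can build proline out of glutamate by way of pyrroline-5-carboxylate. In land plants the synthetase is a single protein that phosphorylates glutamate and then reduces the product, and a separate reductase completes the route. In Arabidopsis thaliana, where the enzyme has a pair of gene copies, it is regarded as the step that limits proline synthesis, and proline inhibits it. Proline is a compatible solute, a small neutral molecule that cells can accumulate without harm to their proteins when the medium becomes salty. In C. reinhardtii, glycerol is the better known compatible solute under salt.

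The study also chose P5CS2 for its quantitative PCR, with EF1ALPHA (CHLREDRAFT_132905), which encodes a translation elongation factor, as the internal reference. The primers are shown because the study measured the gene with them as well. They are written 5′ to 3′ in lower case, and their positions in the transcripts were not analysed here.
P5CS2 forward: ggtttgggaagtgaagtgcc
P5CS2 reverse: acgctacctctacaccccac
EF1ALPHA forward: ctttggttgcctgcctctga
EF1ALPHA reverse: gcctgcaccaatcacatcac
Each primer has 20 bases. The G and C content is 55% and 60% in the P5CS2 pair, and 55% in both EF1ALPHA primers. In the RefSeq gene table of Chlamydomonas_reinhardtii_v5.5, P5CS2 matches the locus CHLRE_03g146527v5, and it lies between CHLREDRAFT_119291 and CHLREDRAFT_191972. The study took its genome and annotation from a release of Ensembl Plants. As the assembly of that release is not named in the sources used here, no coordinates are given.

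Total counts ranged from 15286332 to 24783139 per library, and P5CS2 received between 1866 and 10154 of them. At the lowest of these counts, the counting error alone is 2.31% of the value, so that the spread between replicates and the scaling of the libraries limit the precision. Levels are given as CPM, the usual count relative to library size, here with the size corrected by edgeR's TMM factors, which ranged from 0.677 to 1.3. A pair of libraries stood apart. Their 50 most counted genes held 37.6% of the counts in replicate 1 at 2 h and 41.1% in replicate 1 at 72 h, against 20.4% to 31.2% in the other 25 libraries. The 3 marker genes of a green algal cell, which encode the small subunit of Rubisco, subunit III of photosystem I, and an oxygen-evolving enhancer protein of photosystem II, were at 102 CPM or more in every library.

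P5CS2 was a well expressed gene in control cells, and its mean level was highest at 4 h of salt. The control libraries held 136, 136, and 132 CPM, a mean of 135 ± 2.27 (SD, n = 3). At 2 h the libraries held 441, 292, and 307 CPM (346 ± 81.8, SD, n = 3), and at 4 h they held 411, 387, and 457 CPM (418 ± 35.5, SD, n = 3). All 6 libraries of these early time points were above every control library, and the highest of the 2 h libraries was replicate 1, which stood apart.

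At 8 h the level was lower than in control on the TMM scale, though not when libraries were scaled by total counts. The libraries held 103, 107, and 97.4 CPM, a mean of 102 ± 4.61 (SD, n = 3), and none reached the lowest control library. By 12 h they held 203, 229, and 229 CPM (220 ± 14.9, SD, n = 3). The 8 h libraries were thus the lowest of the series on this scale, between a pair of time points whose libraries all lay far above them.

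From 24 h on, the level stayed above control. The libraries held 239, 257, and 290 CPM at 24 h (262 ± 25.5, SD, n = 3), and 232, 219, and 274 CPM at 48 h (242 ± 28.9, SD, n = 3). At 72 h they held 281, 216, and 190 CPM (229 ± 46.8, SD, n = 3), with the highest value again in the library that stood apart, and at 96 h 211, 176, and 237 CPM (208 ± 30.4, SD, n = 3). The libraries from 12 to 96 h overlapped in most pairs of time points, and each was above every control library and below every 4 h library.

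**Figure D1:**
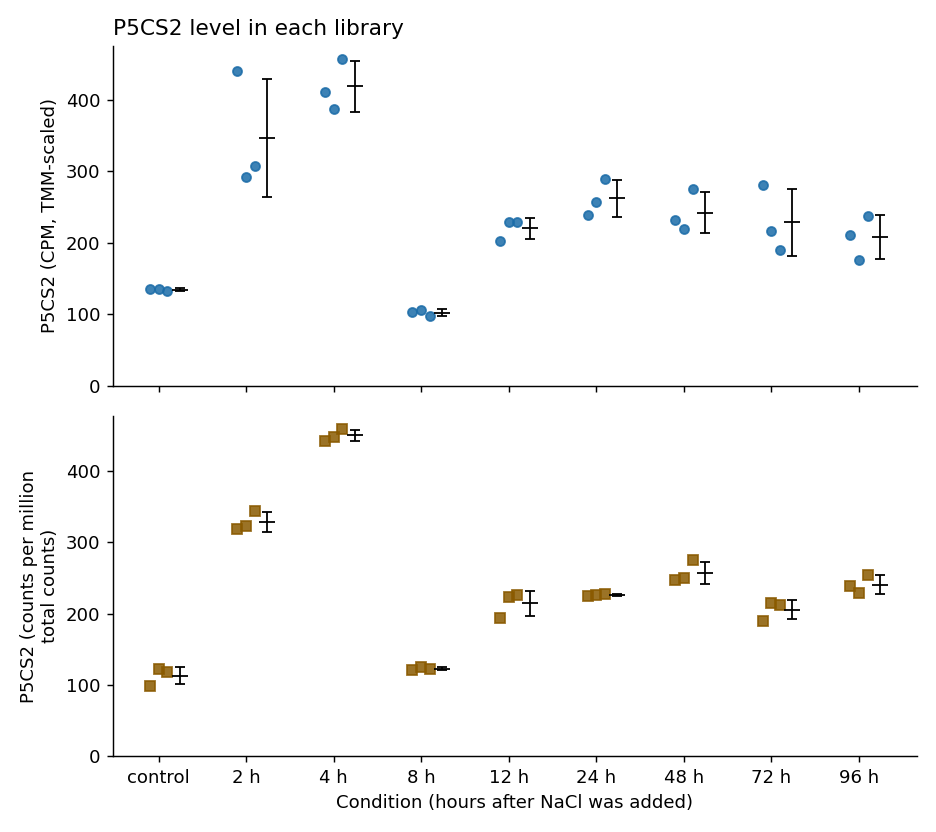
P5CS2 in each of the 27 libraries by condition, as TMM-scaled CPM (upper panel) and as CPM by total counts without TMM factors (lower panel). Points are libraries in the order of their replicate numbers, and bars are the mean ± SD of 3; on the upper scale the 3 libraries of 8 h lie between 97.4 and 107 CPM, under the 132 to 136 CPM of the control libraries, whereas on the lower scale these groups overlap.

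The deposited FPKM values, which also divide by gene length, allow the level to be set against those of other genes. P5CS2 averaged 62.3 ± 0.719 FPKM in control, and 158 ± 44.3 FPKM after 2 h, 186 ± 14.6 FPKM after 4 h, and 46.6 ± 1.97 FPKM after 8 h of salt (SD, n = 3 each). It then averaged 97.6 ± 6.67 FPKM after 12 h, 115 ± 11.7 FPKM after 24 h, 106 ± 13.6 FPKM after 48 h, 103 ± 23.4 FPKM after 72 h, and 93.2 ± 13.1 FPKM after 96 h (SD, n = 3 each). By mean FPKM, it was number 391 of the genes at 4 h, where 97.8% of the genes with a value above 0 were lower. It was number 1618 in control and number 1663 at 8 h, where 90.7% were lower in both.

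Against control, P5CS2 was called higher at 7 of the 8 time points and, with TMM scaling but not with total-count scaling, lower at 8 h. Calls were made by edgeR's quasi-likelihood test in a single fit of all 27 libraries, where the p after Benjamini-Hochberg adjustment over 16443 genes was below 0.05. The libraries were bulk RNA of whole cultures, so that fewer cells with the transcript and less of it per cell cannot be told apart. The log2 fold change was 1.36 at 2 h (SE 0.160, a 2.57-fold higher level, adjusted p = 3.22e-08) and 1.64 at 4 h (SE 0.161, 3.11-fold, adjusted p = 1.73e-09). Of all genes tested, 30.1% were called higher at 2 h and 28% at 4 h, and 12.4% had a larger log2 fold change than P5CS2 at 4 h. The rise was thus shared in direction by many genes, and P5CS2 was in the upper part of the range.

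At 8 h the log2 fold change against control was -0.40 (SE 0.158, 95% interval -0.72 to -0.07, adjusted p = 0.0336), among 28.3% of genes called lower. This call rested on a thin margin. It was lost when any of the 3 libraries of 8 h or the 3 control libraries was left out, with an adjusted p of 0.0544 to 0.104. With libraries scaled by their total counts, an alternative chosen after the values were seen, the change was 0.12 (adjusted p = 0.349). In CPM by total counts, the libraries held 121, 125, and 122 at 8 h, against 99.0, 122, and 118 in control, and the groups overlapped. On that scale the median log2 fold change of all genes at 8 h was 0.50, and P5CS2 lay 0.38 below it.

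At the later time points the log2 fold change was 0.71 at 12 h (SE 0.158, adjusted p = 0.000468), 0.96 at 24 h (SE 0.158, adjusted p = 1.42e-05), and 0.85 at 48 h (SE 0.158, adjusted p = 5.99e-05). It was 0.77 at 72 h (SE 0.158, adjusted p = 0.000186) and 0.63 at 96 h (SE 0.158, adjusted p = 0.00140). These are levels 1.64-fold, 1.95-fold, 1.80-fold, 1.70-fold, and 1.55-fold higher than control in the order of time. The share of all genes called higher was 25.7% for 12 h, 24.9% for 24 h, 26.9% for 48 h, 28.7% for 72 h, and 28% for 96 h. All 15 libraries of these time points were above the 3 control libraries. The 8 comparisons share the same 3 control libraries and are not independent of each other.

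**Figure D2:**
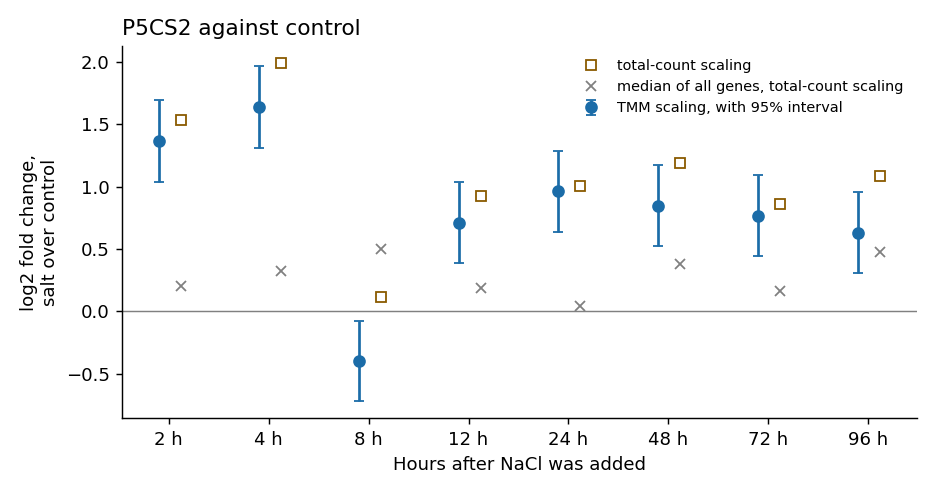
Log2 fold change of P5CS2 over control at each time point under TMM scaling (filled circles, bars are 95% intervals of the edgeR fit) and under total-count scaling (open squares), with the median of all genes under total-count scaling (crosses). The change was -0.40 and 0.12 at 8 h under these scalings, and positive under both at the other 7 time points.

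The salt time points were also compared with each other, which leaves the control libraries out of the contrast. In these pairs the time in salt and the age of the culture cannot be told apart. The same holds for the time of day, except in pairs set whole days apart, and so also for the steps from 4 to 8 h and from 8 to 12 h. Of the 28 pairs of time points, P5CS2 was called in 17, while over all genes tested 28.2% of such pairwise tests were called. All 7 pairs with 8 h were called, and 8 h was the lower member of each. The step from 4 to 8 h was the largest of the 28, with a log2 fold change of -2.03 (SE 0.163, adjusted p = 2.19e-10) for 8 h over 4 h. In this step 17.9% of genes were called lower, and P5CS2 was number 250 from the lowest log2 fold change among 16443 genes. For 12 h over 8 h it was 1.11 (SE 0.159, adjusted p = 4.82e-06), where 15% of genes were called higher and P5CS2 was number 1189 from the highest. The fall and the return were thus both among the larger changes of their steps. Under total-count scaling these pairs with 8 h were all called as well.

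Of the 10 pairs between 12, 24, 48, 72, and 96 h, none was called, with adjusted p from 0.137 to 0.890. At an unadjusted p below 0.05, edgeR gave 1 of these pairs, 96 h over 24 h, with a log2 fold change of -0.33 (unadjusted p = 0.0436). The direction of this difference depended on the scaling. In CPM by total counts, the mean was 241 at 96 h and 226 at 24 h. At an adjusted p below 0.05, DESeq2 also called none of the 10. The 95% intervals of these differences reached from -0.65 to 0.57 on the log2 scale, so that smaller differences within this plateau could not be resolved. All 10 pairs of 12 to 96 h with 2 and 4 h were called, and the later member was lower in each. The 5 pairs of the plateau with 4 h were the firmer ones, with log2 fold changes from -1.01 for 96 h to -0.68 for 24 h. Of those with 2 h, 3 depended on the library that stood apart. Without replicate 1 of 2 h, the pairs of 24, 48, and 72 h with 2 h were not called (log2 fold changes of -0.21, -0.32, and -0.36, adjusted p = 0.288, 0.0995, and 0.0579). When each pair was fitted with its own 6 libraries alone, the same 3 pairs were not called (adjusted p = 0.104, 0.0567, and 0.0934), although their log2 fold changes of -0.47, -0.54, and -0.60 were no smaller than the -0.40, -0.52, and -0.60 of the fit of all libraries. The pair of 24 h with 2 h was also not called without replicate 1 or replicate 2 of 24 h (adjusted p = 0.112 and 0.0768), with log2 fold changes of -0.35 and -0.41.

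In the order of mean CPM with TMM factors, 4 h was followed by 2, 24, 48, 72, 12, and 96 h, then by control and by 8 h. Neighbours in this order differed beyond the replicate error at 3 of the 8 places, between 2 and 24 h, between 96 h and control, and between control and 8 h. The first of these is a pair that was lost without replicate 1 of 2 h, and the last is the comparison that was lost when any 1 of its 6 libraries was left out. For 4 h over 2 h the log2 fold change was 0.27 (95% interval -0.05 to 0.59, adjusted p = 0.271). It was 0.51 without replicate 1 of 2 h (adjusted p = 0.0413) and 0.45 under total-count scaling (adjusted p = 0.00717). Over the 9 conditions together, the edgeR test gave an adjusted p of 1.92e-10, and 81.4% of all genes were called in that test.

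**Figure D3:**
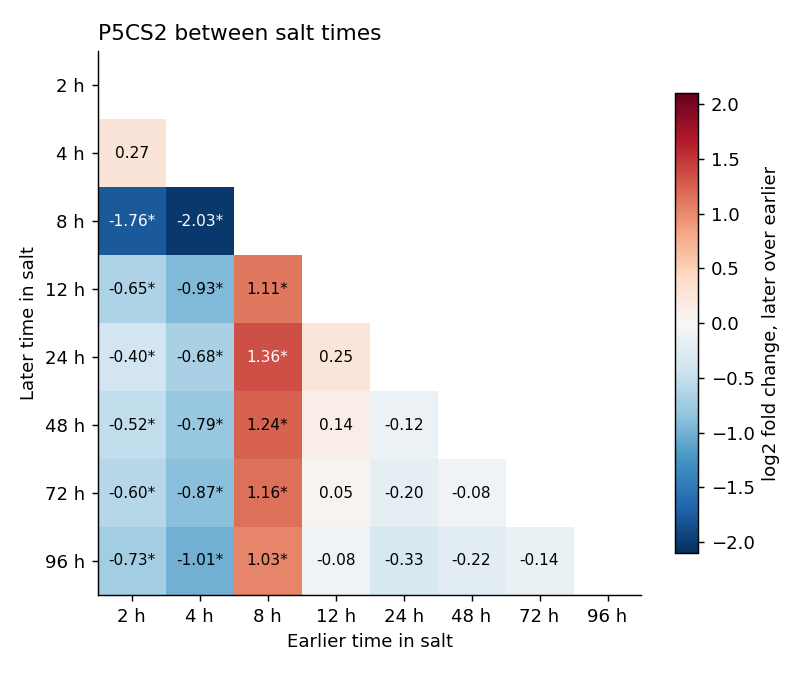
Log2 fold change of P5CS2 for each of the 28 pairs of salt time points, later (rows) over earlier (columns), with colour from lower (blue) to higher (red) and an asterisk where the adjusted p was below 0.05. The row of 8 h is blue and its column is red throughout, and the block of 12 to 96 h holds values from -0.33 to 0.25 without an asterisk.

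The replicates of P5CS2 varied less than the edgeR fit gives for genes of its abundance. The biological coefficient of variation was 0.140, against 0.162 on the trend at that abundance and 0.254 over all genes. The spread within conditions depended on the scaling. With TMM factors, the coefficient of variation was 23.6% at 2 h, 20.5% at 72 h, and 1.69% in control. With total counts it was 4.30% at 2 h, 6.67% at 72 h, and 11.0% in control. In CPM by total counts, the 2 h libraries held 318, 322, and 344, and replicate 1 was then the lowest of them rather than the highest. The part of the share held by the most counted genes in this was not tested.

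Relative to EF1ALPHA, counted in the same library, a ratio is free of any scaling between libraries. P5CS2 had 19.5, 19.7, and 19.4 counts per 1000 counts of EF1ALPHA in control, a ratio that hardly varied. At 4 h there were 77.3, 80.1, and 71.3, and at 8 h 15.7, 15.6, and 15.3. The log2 ratio differed from control by 1.54 (2 h), 1.96 (4 h), and -0.33 (8 h), and by 0.47 (12 h), 0.58 (48 h), and 0.56 (96 h). In these 6 comparisons and at 24 h the groups did not overlap, and the exact two-sided permutation test gave p = 0.1, or 0.114 after adjustment over the 8 time points. This p is the lowest that the permutation test can give with groups of 3, and no model-based test of the ratio was run.

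The largest departures from the CPM were at 24 and 72 h. There the log2 ratio differed from control by 0.20 and 0.01, against log2 fold changes of 0.96 and 0.77 in CPM. EF1ALPHA itself was called higher at these time points, with log2 fold changes of 0.77 at 24 h (adjusted p = 0.0296) and 0.84 at 72 h (adjusted p = 0.0167) in the edgeR fit. It held 11109, 4391, and 4429 CPM at 2 h, and between 7947 and 18953 CPM at 72 h. At 72 h the ratio was 14.8, 21.5, and 23.9, around the control value, and the exact permutation p was 1. The lowest of these was again in replicate 1.

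**Figure D4:**
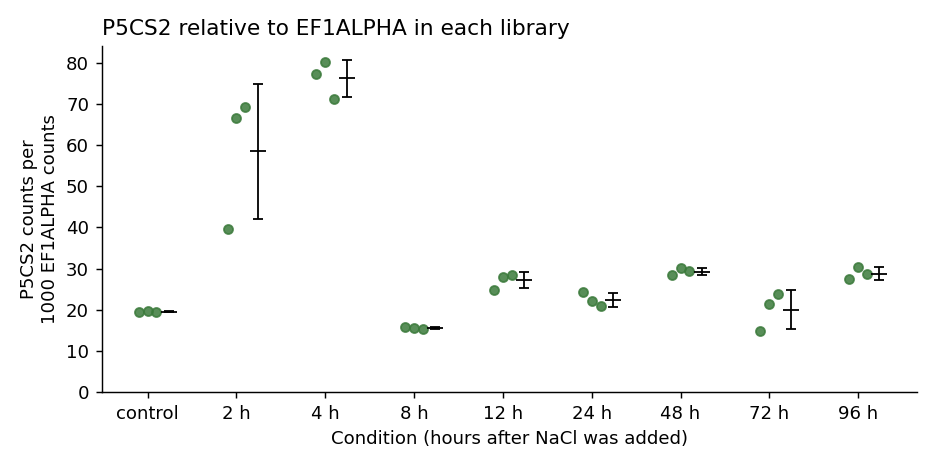
Counts of P5CS2 per 1000 counts of EF1ALPHA in each of the 27 libraries, with the mean ± SD of 3 beside the points. The control libraries lie between 19.4 and 19.7, the 4 h libraries between 71.3 and 80.1, the 8 h libraries between 15.3 and 15.7, and replicate 1 at 2 h (39.7) lies apart from the other 2 h libraries.

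A single gene of the glycerol route was compared in the same libraries, GPDH (CHLREDRAFT_146945), a glycerol-3-phosphate dehydrogenase, which makes the precursor of glycerol. The study names other genes for this enzyme, with reported changes that differ in size, and these were not analysed here. The values are therefore those of this gene and not of the route. Per gene length, P5CS2 was the higher of both genes in control, with 62.4, 63.0, and 61.5 FPKM, whereas GPDH held 12.0, 9.02, and 7.32 FPKM. At 4 h P5CS2 held 184, 172, and 201 FPKM and GPDH 281, 255, and 231 FPKM. The rise of GPDH was the larger, with a log2 fold change in counts from 3.66 at 24 h to 4.92 at 12 h, and the ratio of P5CS2 to GPDH counts was lower than control at all 8 time points. The log2 ratio differed from control by between -4.24 (12 h) and -2.73 (24 h). The groups did not overlap at any of these times (exact two-sided permutation p = 0.1 for each, also after adjustment over the 8). At 8 h P5CS2 was at 46.8, 48.5, and 44.6 FPKM, while GPDH was still far above its control level, with 119, 147, and 126 FPKM. Relative to its control value, the ratio of P5CS2 to GPDH was 0.0534 times at 8 h and 0.0528 times at 12 h, which differ by less than the replicate spread, and 0.151 times at 24 h.

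**Figure D5:**
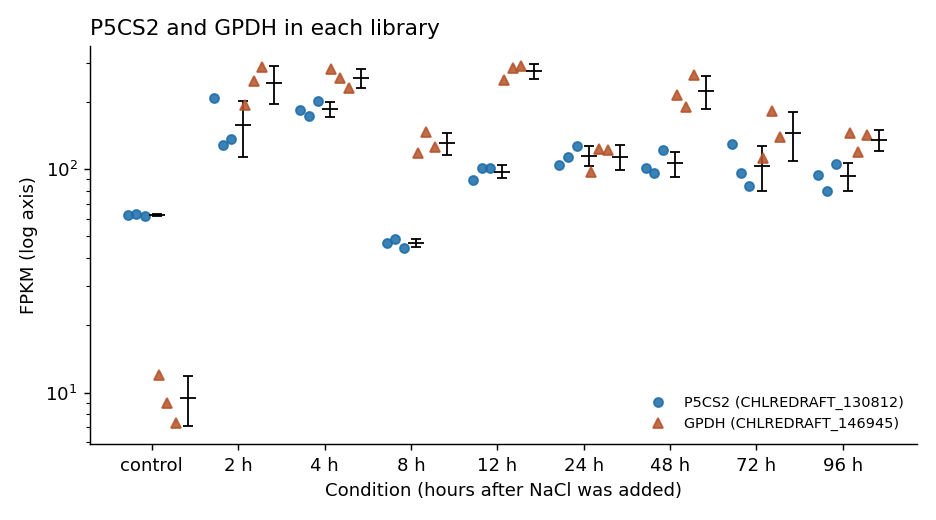
FPKM of P5CS2 (circles) and GPDH (triangles) in each of the 27 libraries on a log axis, with the mean ± SD of 3 beside the points. P5CS2 averaged 62.3 FPKM and GPDH 9.46 FPKM in control, and at 8 h P5CS2 (46.6) was below GPDH (130).

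Among 12718 other genes whose counts averaged 50 or more, the profiles most like that of P5CS2 were found by Pearson's r on log2(CPM + 1) over the 27 libraries. The 5 highest were CHLREDRAFT_195544 (r = 0.951), CHLREDRAFT_191581 (r = 0.930), CHLREDRAFT_143524 (r = 0.914), CHLREDRAFT_184289 (r = 0.912), and CHLREDRAFT_192349 (r = 0.910). Over the 9 condition means their r was 0.964, 0.938, 0.931, 0.933, and 0.915 in the same order. Mean CPM at 8 h was 0.244 of that at 4 h for P5CS2, and from 0.174 to 0.457 of it for these 5 genes. Because the genes were picked by r over these same libraries, a shared fall follows largely from the choice. CHLREDRAFT_143524, for example, averaged 30.6 CPM in control, 170 CPM at 4 h, and 29.4 CPM at 8 h. The sources used here give these 5 identifiers no name. In all, 9 genes had r above 0.9, and the median over the 12718 genes was 0.01. For EF1ALPHA r was 0.10 and for GPDH 0.54. The points share libraries and their scaling, and the values are a description of these 27 libraries.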

How the data were processed

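Polyadenylated RNA of C. reinhardtii GY-D55 was sequenced in 27 libraries, 3 for each of 9 conditions. The authors filtered the reads, aligned them with HISAT2 2.0.5, assembled transcripts with StringTie 1.3.3b (versions from the submitters' processing notes), and counted reads per gene with featureCounts. The deposited counts are whole numbers without normalization. The FPKM values were made by the authors from counts and gene length, and between libraries they follow median-of-ratios size factors (largest difference 0% over 6110 genes). How reads shared between similar genes were counted, and whether strand was used, is not given in the sources used here.

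Genes were kept by filterByExpr (16443 of 19267), scaled with TMM, and fitted with edgeR 4.0.16 in R 4.3.3, with a term for each condition. Calls were made at a Benjamini-Hochberg adjusted p below 0.05 over all genes tested. SEs and 95% intervals were derived from the F statistic of each contrast. In simulated data for 2 h against control, 72 of 98 genes changed 4-fold and 40 of 98 changed 2-fold were recovered among 16239 tested. Another 4 genes were called falsely. Only 196 tested genes of any abundance were changed there, whereas 30.1% of genes were called higher at 2 h in the data. The adjustment was therefore stricter in the simulation, and these shares are not the power for P5CS2. Tables and figures were made with Python 3.11.15, numpy 2.4.6, pandas 2.3.3, and matplotlib 3.10.9. Ratios to EF1ALPHA and GPDH were tested by exact permutation.

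The genes named are P5CS2, EF1ALPHA, GPDH, the 5 genes with the highest r, and the neighbours of P5CS2. A list of other proline pathway genes was to be found by gene name. The reference table pairs 12541 identifiers with locus tags but holds no gene names, so the list had no member and was not analysed here. The gene, lists, and tests were chosen with earlier results of these data known. Labels number the replicates but do not say that they were separate cultures, so p-values measure the spread between these samples. Alternatives were DESeq2 1.42.0, RLE factors, other filters on low counts, fits of 6 libraries, a replicate block, limma 3.58.1 on log2(FPKM + 1) or log2(FPKM + 0.1) and at a mean FPKM of at least 1, leaving out each library, and, chosen after the values were seen, total-count scaling.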

Additional observations from a re-analysis of the deposited data

Results flagged for a closer look

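The change of P5CS2 against control differed between time points by the test of the difference itself in 17 of the 28 pairs. Over all genes tested, 28.2% of such pairwise tests were called. As the control cancels in these differences, they are the same tests as those between salt time points above. The log2 difference of 8 h was -1.76 from 2 h and -2.03 from 4 h. Relative to 8 h, the log2 difference was 1.11 for 12 h, 1.36 for 24 h, 1.24 for 48 h, 1.16 for 72 h, and 1.03 for 96 h. Relative to 2 h, it was -0.65 for 12 h, -0.40 for 24 h, -0.52 for 48 h, -0.60 for 72 h, and -0.73 for 96 h. Those for 24, 48, and 72 h were not called without replicate 1 of 2 h. Relative to 4 h, it was -0.93 for 12 h, -0.68 for 24 h, -0.79 for 48 h, -0.87 for 72 h, and -1.01 for 96 h. No test for a single library far from its group was run on the levels of P5CS2, because each group holds 3 libraries.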

How the results depend on the processing

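The calls at 2, 4, 12, 24, 48, 72, and 96 h against control held under the 9 alternatives in test, scaling, filter, and unit, without each of the 6 libraries compared, and under total-count scaling. The log2 fold change over the 9 alternatives ranged from 1.56 to 1.70 at 4 h and from 0.56 to 0.64 at 96 h. These 9 used either TMM or median-of-ratios size factors, and are not 9 separate checks of the scaling. At 8 h the call held under the 9 alternatives (adjusted p from 0.0262 to 0.0425). Without 1 replicate the call was lost, and the log2 fold change was then between -0.43 and -0.35. Under total-count scaling it was 0.12, where the median of all genes moved by 0.50. That median moved by 0.05 to 0.48 at the other time points, and P5CS2 was above it by 0.61 to 1.67 there. The number of called pairs of time points was 17, and it was 14 in fits of 6 libraries, 18 under total-count scaling, and 15 to 17 without 1 library. The difference at 72 h relative to EF1ALPHA changed sign to -0.06 without replicate 2 and to -0.13 without replicate 3 of 72 h, and ranged from -0.13 to 0.21 without 1 library. The cause was not tested. The differences of the ratios from control are the same in FPKM as in counts by construction, because gene length and library scaling cancel.

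Replicate numbers showed no sign of pairing the libraries, although correlations cannot tell how the cultures were set up. Deviations of same-numbered libraries had a median correlation of -0.000345 over 108 pairs of libraries, with 13 above 0.1. For libraries with other numbers the median was 0.00247 over 216 pairs, with 23 above 0.1. With the replicate block, the log2 fold change at 8 h was -0.40 (adjusted p = 0.0334) and 17 pairs were called. The count of proline pathway genes was not run, because that list had no member.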
